A study of Homo sapiens with 16 samples.

Results

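The sites described here were places in the genome of VCaP prostate cancer cells where ERG bound with high confidence after androgen treatment. GABPα gave a peak there too, but not one of high confidence, and such a peak is here called weak. The sites were selected on 2 lists of peaks, those of ERG and those of GABPα (GABPa in the labels). Both lists came from VCaP cells treated with the synthetic androgen R1881 (methyltrienolone). An interval of the ERG list was a member when it overlapped by at least 1 bp a GABPα peak of the peak caller MACS but no GABPα interval of high confidence, that is, none called by both MACS and a second caller, SWEMBL. The rule found 897 of 2229 high confidence ERG intervals, or 40.2%. Another 206 (9.24%) overlapped a high confidence GABPα interval, here called strong GABPα sites, and 1126 (50.5%) overlapped no GABPα peak.

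ERG and GABPα both belong to the ETS family of transcription factors, which share a DNA-binding domain and recognise sequences with a common short core. GABPα acts with its partner GABPβ and is best known at the promoters of housekeeping, mitochondrial and cell cycle genes. ERG is an endothelial and blood cell factor that prostate tumours with a TMPRSS2-ERG fusion produce in response to androgen, and VCaP cells carry that fusion.

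The series held 10 chromatin immunoprecipitation (ChIP-seq) samples with peak files, and its 6 input samples had no peak file to analyse here. VCaP cells were kept in charcoal-stripped serum for 48 h and then given 1 nM R1881 or the same volume of ethanol (vehicle), with 1 sample of each factor per condition. A further sample of each factor was labelled t0, which the labels do not explain. Jurkat cells, derived from a T-cell leukaemia and given no treatment in the labels, gave 2 replicates for each factor. With 1 VCaP sample per condition no difference between conditions has a replicate check, sites are not replicates of a condition, and no test was made. The percentages below are given with 95% Wilson intervals that cover the counting of sites only. The ERG antibody is in doubt, because its product number in the labels is not the one that the study's methods list for ERG. ERG below means the samples labelled ERG, and which protein the antibody bound was not tested.

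MACS called between 6963 and 23947 peaks per sample, with the fewest for ERG at t0. Its score, a scaled negative logarithm of the peak's p-value by that program's convention, started at 50 in every sample and was not scaled between libraries, whose read depths are unknown. A site without a peak may therefore have fallen below the caller's threshold rather than have been unbound.

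With R1881, the GABPα peak at the members was mostly low and the ERG peak was high. The GABPα score had a median of 104, with quartiles of 71.4 and 170 and a range of 50.1 to 1401. The ERG score at the same sites had a median of 482, with quartiles of 319 and 690 and a range of 67.6 to 3100. These scores chose the members in part and are given as a description. The GABPα score was below 100 at 421 members (46.9%) and exceeded the ERG score at 40. The median ratio of GABPα to ERG score was 0.239. At the strong GABPα sites the ERG score was similar, with a median of 497, while the GABPα score had a median of 472 and the ratio was 1.04. The GABPα score of the strong sites ranged from 57.4 to 3100 and so overlapped that of the members. Sites without a GABPα peak had a lower ERG score, with a median of 330.

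**Figure D1:**
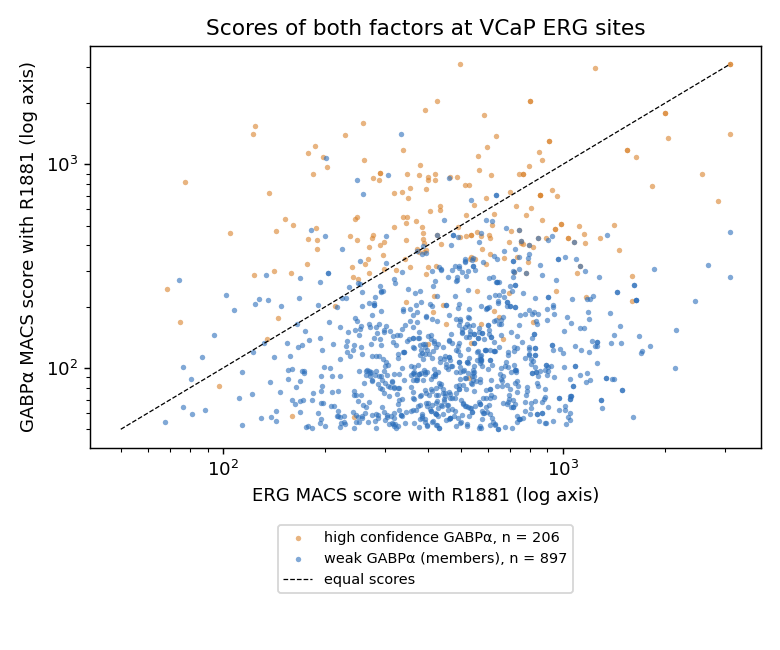
MACS score of GABPα against that of ERG with R1881, both on log axes, with a point for each of the 897 members and each of the 206 strong GABPα sites. Most members lie below the dashed line of equal scores, and 40 lie above it.

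Members were more frequent among ERG sites of higher ERG score. Of all ERG sites 49.5% overlapped a GABPα MACS peak, weak or strong. Members made up 19.9% of the 356 ERG sites with a score under 200 and 35.4% of the 759 sites scoring 200 to 400. Their share was 48.0% of the 841 sites scoring 400 to 800 and 56.0% of the 273 sites at 800 or more. The share of strong GABPα sites also rose at the top of this range, from 7.30% and 7.38% to 8.92% and 17.9%. The GABPα score of the members had medians of 91.2, 96.1, 110 and 120 over the same ranges. The rule left out sites with a high confidence GABPα interval, whose share rose with ERG score. These medians and the correlation below are therefore limited by the rule. Over the 897 members the rank correlation of the 2 scores was 0.148, a weak relation given as a description, since the points come from 1 library per factor and members can lie in the same peak.

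The GABPα peak covered the ERG site rather than touching its edge. The ERG intervals had a median length of 164 bp, and 891 of the 897 lay wholly inside the GABPα MACS peak, which had a median length of 714 bp. The centre of the ERG interval lay a median of 65.5 bp from the centre of the GABPα peak, against 70 bp at the strong GABPα sites. The members fell in 837 ERG MACS peaks, of which 778 held 1 member, 58 held 2 and 1 held 3. None of the 897 overlapped a GABPα interval of SWEMBL, the caller that high confidence required in addition to MACS.

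The gap from a member to the nearest high confidence GABPα interval, at an ERG site or not, had a median of 240707 bp, against 258857 bp for ERG sites without a GABPα peak. It was within 1000 bp at 27 members, 10000 bp at 59 and 100000 bp at 278. In 27 cases the GABPα MACS peak at the member held a high confidence interval elsewhere along its length, and in the other 870 it held none. Members made up between 22.6% (12 of 53, chromosome 16) and 51.2% (42 of 82, chromosome 4) of the ERG sites of each chromosome with at least 23 sites. The low value on chromosome 16 came from 34 sites, 3 of them members, packed between positions 44943480 and 44989023, and outside that stretch 9 of 19 sites (47.4%) were members. All 3 sites on chromosome Y were members.

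Such runs were found by a rule set after the values had been seen, as sites with at least 5 ERG sites, themselves included, whose centres lay within 50000 bp. They held 91 ERG sites, of which 11 were members and 78 had no GABPα peak with R1881. Several sites of a run often fell in the same MACS peak and were thus not separate observations. Values without these runs are given where they differed.

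The members nearest the limit of the rule had high GABPα scores. At chr1:7953915-7954008 (coordinates in build hg18 throughout) the interval ended 1 bp from a high confidence GABPα interval, and the GABPα score was 705 with R1881 and 119 with vehicle. At chr18:53967374-53967504 the gap was 2 bp and the GABPα score was 884 with R1881. Just outside the rule, chr7:116525372-116525466 overlapped a high confidence interval by 1 bp with a GABPα score of 386. The site chr8:81882690-81882804 overlapped one by 4 bp with a score of 447.

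With vehicle, about every other member had a GABPα peak. A GABPα MACS peak was present with vehicle at 446 members (49.7%, 95% interval 46.5 to 53.0), against 32.6% of all ERG sites. The share was 88.3% (83.3 to 92.0) at the strong GABPα sites and 8.70% (7.19 to 10.5) at sites without a GABPα peak with R1881. A high confidence GABPα interval was present with vehicle at 32 members (3.57%, 2.54 to 4.99), against 6.82% of all ERG sites and 57.3% of the strong ones.

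At t0 the GABPα peak was seldom called. It was present at 47 members (5.24%, 3.96 to 6.90), against 6.91% of all ERG sites and 49.5% (42.8 to 56.3) of the strong GABPα sites. No member overlapped a high confidence GABPα interval at t0 (0 of 897, upper limit 0.426%), where 1.57% of all ERG sites and 17.0% of the strong ones did. Of the 47 members with a GABPα peak at t0, 42 also had one with vehicle, and their median GABPα score with R1881 was 219. The t0 sample had fewer GABPα peaks in all, 9531 against 14183 with vehicle and 15013 with R1881, and the part of this in the lower share was not tested.

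ERG itself was present with vehicle at most members, and there the members were close to the other ERG sites. An ERG MACS peak was present at 603 members (67.2%, 64.1 to 70.2), against 69.3% of all ERG sites, 69.9% of the strong and 70.9% of those without GABPα. A high confidence ERG interval with vehicle was present at 186 members (20.7%, 18.2 to 23.5), against 22.8% of all. At t0 an ERG peak was present at 104 members (11.6%, 9.66 to 13.9), against 10.8% of all. The high confidence list of ERG at t0 held 2 intervals only, and 1 member overlapped it. The high confidence lists of ERG with vehicle and at t0 and of the first Jurkat ERG replicate give wider intervals than the other lists, so shares in them are not on quite the same footing.

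**Figure D2:**
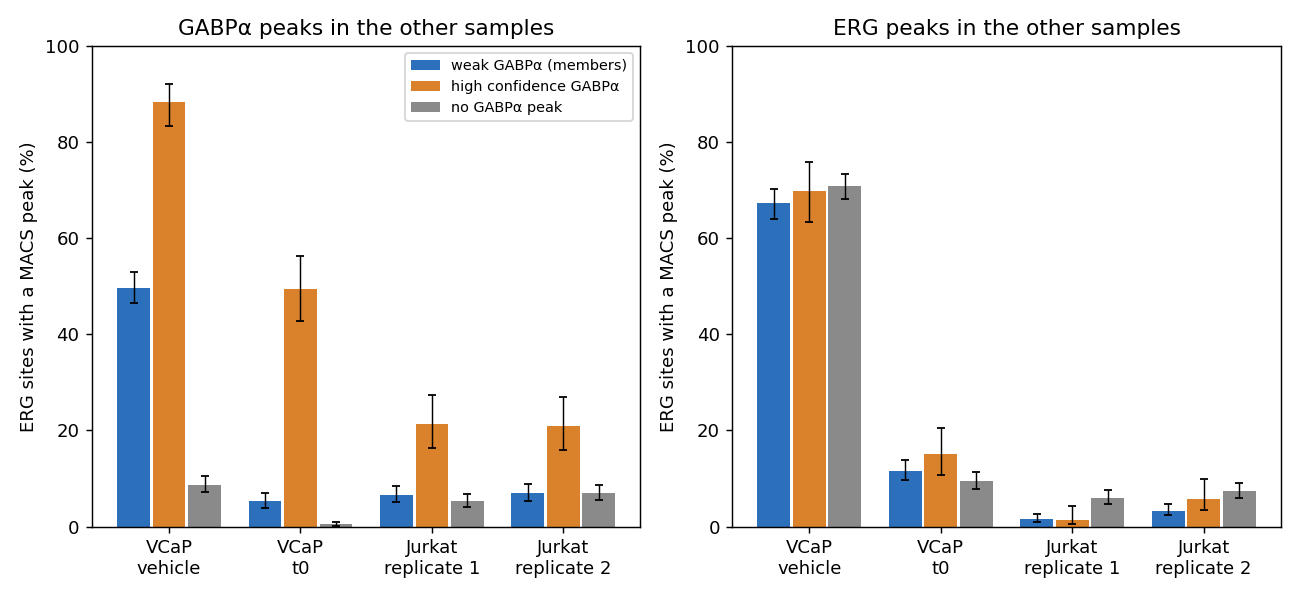
Percentage of the 897 members, 206 strong GABPα sites and 1126 sites without GABPα that overlapped a MACS peak of GABPα (left) or ERG (right) in the VCaP vehicle and t0 samples and in each Jurkat replicate, with 95% Wilson intervals over sites as error bars. With vehicle the GABPα share of members (49.7%) lies between the other classes, whereas the ERG shares are all near 69.3%, and most Jurkat peaks at sites without GABPα lie in runs of close ERG sites.

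In VCaP cells with vehicle, GABPα was found mostly at those members where ERG was found too, and the same held in the other classes of ERG sites. GABPα had a peak at 390 of the 603 members with an ERG peak with vehicle (64.7%, 60.8 to 68.4). It had a peak at 56 of the 294 members without one (19.0%, 14.97 to 23.9). These intervals do not overlap. This is a description, since the sites come from 1 library per factor and can lie in the same peak. Neither factor had a MACS peak with vehicle at 238 members (26.5%).

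Members with and without an ERG peak with vehicle had similar GABPα scores with R1881, with medians of 106 and 104, while their median ERG scores with R1881 were 523 and 392. The split was therefore repeated within ranges of each score. Where the GABPα score with R1881 was 50 to 100, GABPα was called with vehicle at 49.6% (43.9 to 55.4) of members with ERG and 5.76% (2.94 to 10.9) without. In the range 100 to 200 the shares were 67.5% (60.8 to 73.6) and 25% (17.4 to 34.5). At 200 or more they were 95.8% (90.5 to 98.2), or 113 of 118 sites, and 40.7% (29.1 to 53.4), or 24 of 59.

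The same held in each range of ERG score with R1881. The shares with and without an ERG peak with vehicle were 66.7% and 29.3% below a score of 200, and 63.7% and 18.8% from 200 to 400. They were 66.0% and 16.4% from 400 to 800, and 62.5% and 16.0% at 800 or more. At the strong GABPα sites the corresponding shares were 94.4% (89.4 to 97.2) and 74.2% (62.1 to 83.4). At sites without a GABPα peak with R1881 they were 11.9% (9.84 to 14.3) of 798 sites and 0.915% (0.31 to 2.65) of 328. The split was thus not particular to the members. At t0 the intervals of the members overlapped, with GABPα at 8 of 104 members with an ERG peak (7.69%, 3.95 to 14.4) and 39 of 793 without (4.92%, 3.62 to 6.65). At the strong GABPα sites the t0 shares were 83.9% (67.4 to 92.9) of 31 sites and 43.4% (36.3 to 50.8) of 175.

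**Figure D3:**
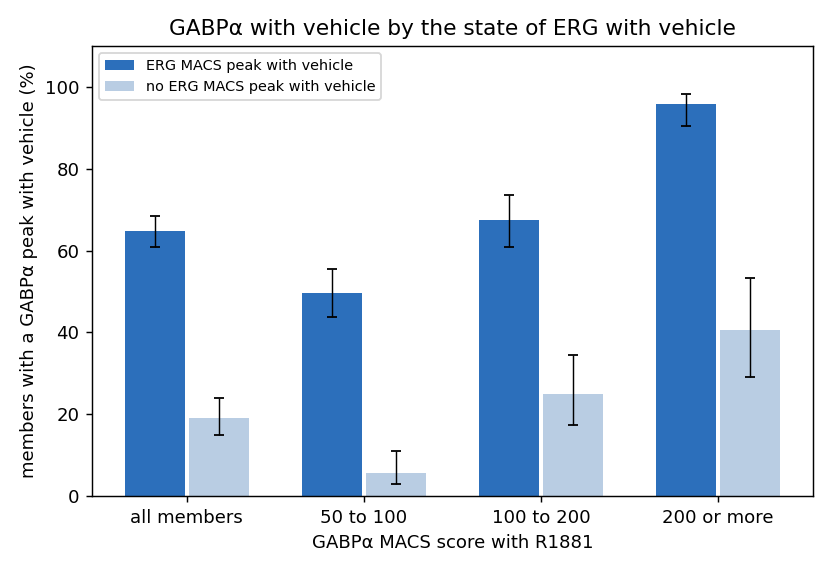
Percentage of members with a GABPα MACS peak with vehicle, for members with and without an ERG MACS peak with vehicle, over all 897 members and within ranges of the GABPα score with R1881, with 95% Wilson intervals over sites as error bars. In each range the share is higher where ERG was called, from 49.6% against 5.76% in the lowest range to 95.8% against 40.7% in the highest.

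Where peaks were called in both conditions, ERG scores were higher with R1881 at most members and GABPα scores much less so. At the 603 members with ERG in both samples the median score was 191 with vehicle and 523 with R1881. The ratio of R1881 to vehicle had a median of 2.39 (quartiles 1.504 and 4.47) and was above 1 at 541. The members were chosen for high confidence ERG with R1881, which favours a ratio above 1. They were also chosen for a GABPα peak but no high confidence GABPα interval with R1881, which bounds the GABPα score with R1881. The contrast between the factors is thus set in part by the rule. Sites without GABPα, chosen for ERG in the same way, had a median ratio of 1.79 and the strong GABPα sites 2.97, while all ERG MACS peaks called in both samples had 1.16. At the 446 members with GABPα in both samples the median score was 106 with vehicle and 135 with R1881. The ratio had a median of 1.17 (quartiles 0.8 and 1.68) and was above 1 at 276 (61.9%). It was 1.41 at the strong GABPα sites, and over all 9916 GABPα MACS peaks called in both samples it was 1.00, with 48.2% above 1. The vehicle and R1881 samples of a factor were called against the same input library.

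The score ratios of GABPα and ERG went together from site to site. At the 390 members with all 4 peaks, the rank correlation of the ERG ratio and the GABPα ratio of R1881 to vehicle score was 0.523, a description over sites that share the same 4 libraries. The GABPα ratio had a median of 0.722 at the 54 members where the ERG score was lower with R1881. It was 0.921 at the 141 members where ERG rose less than 2-fold in score, 1.32 at the 126 members between 2 and 4, and 1.69 at the 69 members at 4 or more. Both scores were higher with R1881 at 211 members and both were lower at 39. ERG was higher and GABPα lower at 124, and the reverse was seen at 14.

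**Figure D4:**
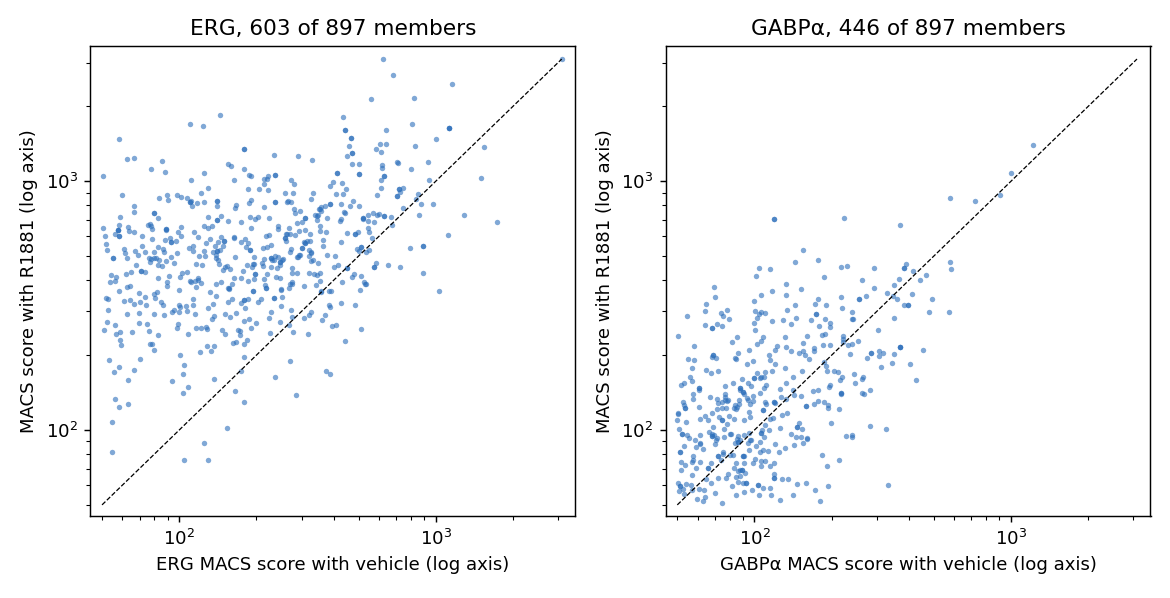
MACS score with R1881 against that with vehicle for ERG (left, 603 members) and GABPα (right, 446 members), on log axes, with a point for each member called in both samples and a dashed line of equal scores. ERG lies above the line at 541 members and GABPα at 276.

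GABPα peaks at the members were also set against weak GABPα peaks elsewhere, a comparison chosen after the values had been seen. It used GABPα MACS peaks with R1881 that held no high confidence interval, 812 at members and 6425 that overlapped no ERG MACS peak with R1881. Over all scores, 48.2% (44.7 to 51.6) at members and 51.7% (50.5 to 52.9) elsewhere were found with vehicle. The peaks elsewhere were weaker, with a median score of 74.3 against 102, so the ranges were compared separately. Between 50 and 100, the shares were 34.2% and 33.5%. Between 100 and 200 they were 53.8% (47.9 to 59.5) and 84.3% (82.3 to 86.1), and at 200 or more 76.8% (69.1 to 83.1) and 96.9% (95.5 to 98.0). In these 2 higher ranges GABPα peaks were called with vehicle less often at members than away from ERG. The peaks at members were chosen for high confidence ERG with R1881, and those elsewhere for no ERG peak with R1881. The part of this choice in the difference was not tested.

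Jurkat cells gave the same order for these peaks. In the range of 200 or more, GABPα peaks were found in Jurkat replicates 1 and 2 at 8.70% (5.04 to 14.6) and 11.6% (7.26 to 18.0) at members. Elsewhere the shares were 24.7% (21.7 to 27.9) and 20.3% (17.6 to 23.3), and the intervals overlapped in replicate 2. At t0 they were 11.6% (7.26 to 18.0) at members and 22.4% (19.6 to 25.5) elsewhere.

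**Figure D5:**
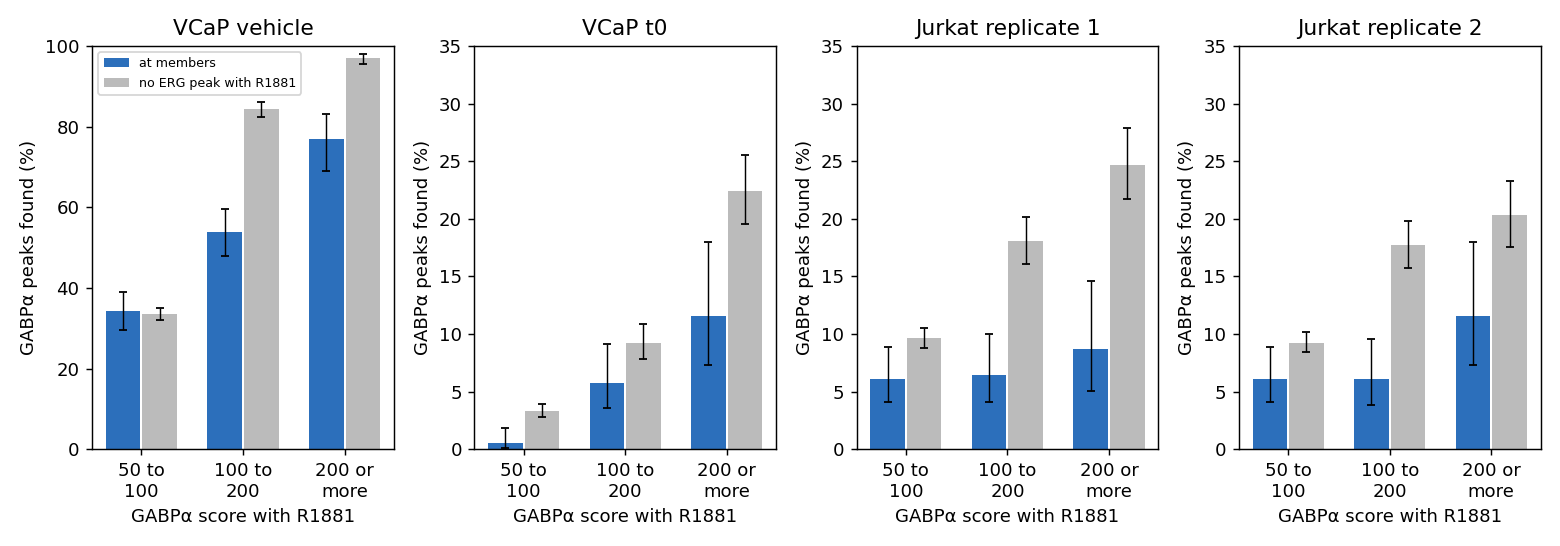
Percentage of GABPα MACS peaks with R1881 and no high confidence interval that were found in the VCaP vehicle and t0 samples and in the Jurkat replicates, by range of the GABPα score with R1881, at members (blue) and away from any ERG MACS peak (grey), with 95% Wilson intervals. The vehicle panel has its own scale to 100%, and at scores of 200 or more its bars stand at 76.8% and 96.9%.

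Few members had a peak of either factor in Jurkat cells. GABPα had a MACS peak at 59 members in replicate 1 and 62 in replicate 2, or 6.74% ± 0.237 (SD, n = 2), with 48 in both. All ERG sites had 7.31% and 8.21%. Without the crowded runs all ERG sites had 5.75% and 5.80% and the members 6.32% and 6.66%, so the order was reversed. The strong GABPα sites had 21.1% ± 0.343. The SD covers the spread between replicates and not the counting of sites. The intervals over sites were 16.3 to 27.5 and 15.9 to 26.9 at strong sites in replicates 1 and 2. At members they were 5.13 to 8.39 and 5.43 to 8.76. The sites without GABPα had 6.13% ± 1.13, but 37 of their 60 peaks in replicate 1 and 56 of 78 in replicate 2 lay in the crowded runs. Without the runs they had 2.15% ± 0.0675 and the members 6.49% ± 0.239, a gap larger than the spread between replicates. High confidence GABPα intervals covered 10 members in replicate 1 (1.11%) and 18 in replicate 2 (2.01%), and 9 members in both. They covered 2.29% and 3.9% of all ERG sites. Of those, sites without GABPα made up 21 of 51 and 47 of 87. The part of the crowded runs in these shares was not tested.

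ERG peaks of Jurkat cells were rarer still at the members. These samples had fewer peaks in all, 7288 and 15229 for ERG in replicates 1 and 2 against 21503 and 22108 for GABPα. The part of this in the lower share was not tested. ERG had a MACS peak at 14 members in replicate 1 (1.56%, 0.932 to 2.60) and 30 in replicate 2 (3.34%, 2.35 to 4.73). The mean was 2.45% ± 1.26 (SD, n = 2). All ERG sites had 3.81% and 5.61%, and sites without GABPα 6.71% ± 0.942. That difference rested on the crowded runs, which held 55 of the 68 peaks at sites without GABPα in replicate 1 and 59 of 83 in replicate 2. Without the runs the shares were 2.14% ± 1.28 at members and 1.77% ± 0.742 at sites without GABPα, less apart than the replicates. All ERG sites outside the runs had 1.26% and 2.95% in replicates 1 and 2, close to the members at 1.24% and 3.05%. High confidence Jurkat ERG intervals covered 6 and 5 members (0.669% and 0.557%), with 2.78% of all ERG sites in each replicate. Of those 62 sites in each replicate, 54 and 56 were sites without GABPα. The part of the runs in these shares was not tested. Of the 48 members with Jurkat GABPα in both replicates, 31 had GABPα and 38 had ERG in VCaP cells with vehicle, and their median scores with R1881 were 125 for GABPα and 541 for ERG.

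Counted over the 4 other GABPα samples (vehicle, t0 and both Jurkat replicates), 423 members had a GABPα peak in none and 379 in 1. Only 63 had it in 2, 19 in 3 and 13 in all 4. For ERG the counts were 281 in none, 497 in 1, 103 in 2, 16 in 3 and 0 in all 4.

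The members with the highest GABPα scores lay close to a high confidence GABPα interval. At chr19:62565748-62565891 the GABPα score was 1401 with R1881 and 1220 with vehicle, with no peak at t0, and it was 506 and 883 in Jurkat replicates 1 and 2. ERG scored 335 there with R1881 and 64.5 with vehicle, and had no peak at t0 or in Jurkat cells. A high confidence GABPα interval lay 504 bp away. The site thus lay within a large GABPα MACS peak in both cell lines, with a modest ERG peak. The score is that of the whole MACS peak and does not place GABPα at the site itself. No high confidence GABPα interval covered the site in any sample.

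At chr19:53256564-53256706, 421 bp from a high confidence GABPα interval, GABPα scored 1075 with R1881, 1001 with vehicle and 182 at t0, with ERG at 201, 101 and 71.6. At chr18:53967374-53967504, near the limit of the rule, GABPα scored 884, 907 and 295 in the same order, with ERG at 305 and 273 and no ERG peak at t0. Neither site had a peak in Jurkat cells, and GABPα at both differed little between R1881 and vehicle.

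The members with the highest ERG scores showed the opposite balance. At chr19:56074638-56076126 ERG reached 3100, a value shared by 2 members, with R1881 and with vehicle, and 1744 at t0. GABPα scored 281 there with R1881 and 145 with vehicle, with no peak at t0 or in Jurkat cells. It was the member in the high confidence ERG list at t0, and it lay in a run of 12 close ERG sites on chromosome 19, of which it was the 1 member.

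At chr2:129058569-129058950 ERG scored 3100 with R1881, 623 with vehicle and 98.3 at t0, and GABPα 466 with R1881 and 391 with vehicle. Its Jurkat peaks were near the threshold, with GABPα at 54.0 and ERG at 102 in replicate 2 only. At chr1:150325849-150326393 ERG scored 2672, 680 and 69.9, and GABPα 321 with R1881 and 64.5 with vehicle, with no Jurkat peak. At this last site both factors were several times higher in score with R1881 than with vehicle.

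Among the 32 members inside a high confidence GABPα interval with vehicle, those with the highest vehicle score had lower GABPα scores with R1881, which their choice by the vehicle score and the lack of a high confidence interval with R1881 favours. At chr9:126023077-126023162 GABPα scored 582 with vehicle, 444 with R1881 and 71.6 at t0, while ERG was called with R1881 only, at 200.0. At chr3:149825840-149825972 GABPα scored 577, 473 and 56.1 in the same order, with ERG at 744 with R1881 and 443 with vehicle. These sites lay 14 and 30 bp from a high confidence GABPα interval with R1881.

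The site chr7:66231603-66231774 lay 132275 bp from such an interval. GABPα scored 491 there with vehicle, 336 with R1881 and 184 at t0, and 322 and 395 in the Jurkat replicates. ERG scored 252 with R1881 and 146 with vehicle, and 294 in Jurkat replicate 2 only. It lay in a high confidence GABPα interval with vehicle and in both Jurkat replicates but not with R1881.

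The members with the highest mean GABPα score in Jurkat cells, among the 9 in high confidence intervals of both replicates, differed from each other in VCaP cells. At chr8:81510855-81511092 GABPα scored 741 and 809 in the Jurkat replicates and 533 in VCaP cells with R1881, but had no peak with vehicle or at t0. ERG likewise had a peak with R1881 only, at 594. This was a GABPα peak of both cell lines that in VCaP cells was called after androgen alone.

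At chr16:44984996-44985072 GABPα scored 430 and 519 in Jurkat cells but 97.3 with R1881 and 106 with vehicle in VCaP cells. ERG was called there in both lines, at 568 and 916 in Jurkat cells and at 722 with R1881 and 629 with vehicle. This site belonged to the run of 34 on chromosome 16, of which 24 and 33 had GABPα and 32 and 34 had ERG peaks in Jurkat replicates 1 and 2.

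At chr3:178798374-178798532 GABPα scored 488 and 461 in Jurkat cells and 123, 77.5 and 76.0 in VCaP cells with R1881, with vehicle and at t0, with ERG called with R1881 only, at 196.

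The members with the lowest GABPα scores were called for GABPα with R1881 only. They were chr22:28243402-28243512 at 50.1, chr14:88149737-88149859 at 50.5 and chr17:31051860-31052062 at 50.6. Their ERG scores with R1881 were 642, 242 and 433. ERG with vehicle was called at the site on chromosome 22 alone, at 88.4, and none had a peak of either factor in Jurkat cells.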

How the data were processed

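ChIP-seq peak files of 10 samples were analysed, each sample called separately against an input. Per the study's methods and the submitters' processing notes, the authors aligned reads to hg18 with BWA 0.5.5, called peaks with MACS (version not given in the sources used here) and SWEMBL, and kept peaks found by both as high confidence intervals. The values used are the MACS peak scores deposited by the authors, a score that is not scaled between libraries. Most high confidence lists give SWEMBL pieces, while those of ERG at t0, ERG with vehicle and Jurkat ERG replicate 1 give mostly whole MACS peaks with a constant in place of the score.

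Sites were matched to peaks where they shared 1 bp or more (Python 3.11.15, numpy 2.4.6 and scipy 1.17.1; figures with matplotlib 3.10.9), and the matching was checked on simulated intervals against bedtools 2.31.1. A site took the highest score among the MACS peaks it overlapped. Shares carry Wilson 95% intervals, Jurkat shares the mean ± SD of 2 replicates, and no test was made. Members, score ranges and comparisons were chosen with earlier results of these data known. Named sites were, each ERG MACS peak at most once per list, the 3 members highest in GABPα score with R1881, the 3 highest in ERG score with R1881 and the 3 lowest in GABPα score with R1881. Further named were the 3 highest in GABPα score with vehicle within high confidence intervals with vehicle, the 3 highest in mean Jurkat score within those of both replicates, and the 2 nearest sites on each side of the rule's limit. Coordinates are 1-based. Sequences and gene annotation of hg18 were not used here.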

Additional observations from a re-analysis of the deposited data

How the results depend on the processing

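The 13 results were recomputed under 70 alternative values, of which 53 counted as the same and 17 as moved. For VCaP shares, medians and the correlation, the same meant within the main value's interval. For the number of members it meant within a set fold. For Jurkat shares it meant within the SD of the replicates, which either replicate alone meets by construction. With a MACS score of at least 100 required in the sample looked at, the share of members with GABPα fell to 27.0% with vehicle, 2.12% at t0 and 4.35% in Jurkat cells, and that with ERG to 51.5% with vehicle and 2.34% at t0. Requiring a GABPα score of at least 100 with R1881 left 476 members, with medians of 163 for GABPα and 523 for ERG and a rank correlation of 0.0437. When the overlap had to cover 50% of the shorter interval, the shares were 2.23% for high confidence GABPα with vehicle and 6.30% for Jurkat GABPα. Counting each ERG MACS peak once, with overlap taken over the whole peak rather than the member interval, gave 7.05% for Jurkat GABPα. Leaving out the runs of close ERG sites, an alternative chosen after seeing the data, gave 6.49%.

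The split of vehicle GABPα by vehicle ERG, with alternatives chosen after seeing the data, was 42.4% with an ERG peak against 10.6% without at scores of at least 100 for both factors with vehicle. It was 77.9% against 31.0% among members with a GABPα score of at least 100 with R1881. Without either Jurkat replicate in turn, the share with a Jurkat peak was 6.58% to 6.91% for GABPα and 1.56% to 3.34% for ERG. Read depths are unknown, 1 library stands for each VCaP condition, and scores of different libraries are not on a common scale.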
